A study of Mus musculus with 96 samples.

Results

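The 34 genes described here are p53, its inhibitors, a panel of its transcriptional targets, and the kinases and mediators of the DNA damage checkpoint. They were chosen by name, as the rows of the deposited tables whose gene symbol equals one of 34 symbols, and each symbol was found in 1 of the 48795 rows. RNA was sequenced from the striatum and the cerebral cortex of 48 mice on a C57BL/6 background at 6 months of age, which gave 96 libraries. The mice fell into 6 genotypes of 8 animals, 4 of each sex: wild type, Q140, Msh6+/-, Q140 Msh6+/-, Msh6-/- and Q140 Msh6-/-. Q140 is a knock-in allele that puts a long CAG repeat into the mouse Huntington's disease gene Htt, and every Q140 animal was heterozygous for it. Msh6 encodes a mismatch repair protein that binds mispaired bases, and Msh6+/- and Msh6-/- mice lack a working copy on one or on each chromosome. The animals of a group are separate mice, and each mouse gave both tissues. The cross asks how loss of Msh6 bears on the transcriptional effect of Q140, and for these genes whether either allele sets off a damage response.

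p53 is a transcription factor that is kept scarce by Mdm2, a ubiquitin ligase, and held inactive by the related protein Mdm4. When DNA breaks or replication stalls, the kinases Atm and Atr and their partners Chek2 and Chek1 modify p53 so that it escapes this control and switches on genes for cell cycle arrest, repair and cell death. Because p53 is controlled mostly at the protein level, transcript levels of its targets (Cdkn1a, Mdm2, Ccng1, Phlda3, Eda2r and others) are the usual RNA readout of its activity, while the transcripts of the kinases say little about their activity. Several of these targets, among them Plk2, Gadd45a and Btg2, are also induced by synaptic activity in neurons.

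Promoter sequences were examined for the binding motifs of p53 and of the activity-driven factors CREB and SRF. The RefSeq start sites of GRCm38.p6 matched 26 of the 34 members, with 33 windows of the 250 bases before a start. H2afx, Zmat3, Xpc, Trp53inp1, Perp, Rrm2b, Pmaip1 and Ddb2 were not matched. The windows were searched on both strands for the p53 decamer motif, for a pair of such decamers at most 13 bases apart, for the cyclic AMP response element TGACGTCA, and for the CArG box of serum response factor. A p53 decamer was present in 8 of the 33 windows and in 7.13% of all 32851 windows of this length. The pair was present in 1 member window, before the upstream start of Cdkn1a, and in 0.06% of all windows. The letters TGACGTCA were present in 2 member windows, those of Plk2 and Btg2, and in 1.55% of all windows, and a CArG box in 0 member windows and 1.47% of all. A match is a string of letters and not a measured binding site. The windows of Cdkn1a (chr17:29090729-29090978, plus strand), Mdm2 (chr10:117710759-117711008, minus strand), Gadd45a (chr6:67037408-67037657, minus strand) and Plk2 (chr13:110394794-110395043, plus strand) are printed because 3 of these genes fell in Q140 striatum and Mdm2 is the feedback inhibitor of p53. Each reads 5′ to 3′ in the direction of the gene, with the p53 decamers and the TGACGTCA in capitals.
Cdkn1a: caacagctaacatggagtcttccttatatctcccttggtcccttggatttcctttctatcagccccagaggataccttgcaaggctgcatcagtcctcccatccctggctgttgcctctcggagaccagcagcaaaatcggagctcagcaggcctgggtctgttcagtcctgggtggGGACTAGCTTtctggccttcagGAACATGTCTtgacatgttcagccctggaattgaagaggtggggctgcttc
Mdm2: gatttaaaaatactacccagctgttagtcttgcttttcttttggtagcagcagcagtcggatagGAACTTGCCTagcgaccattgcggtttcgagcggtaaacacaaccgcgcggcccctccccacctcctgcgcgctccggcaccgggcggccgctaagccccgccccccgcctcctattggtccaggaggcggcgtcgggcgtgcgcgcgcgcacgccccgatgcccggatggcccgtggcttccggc
Gadd45a: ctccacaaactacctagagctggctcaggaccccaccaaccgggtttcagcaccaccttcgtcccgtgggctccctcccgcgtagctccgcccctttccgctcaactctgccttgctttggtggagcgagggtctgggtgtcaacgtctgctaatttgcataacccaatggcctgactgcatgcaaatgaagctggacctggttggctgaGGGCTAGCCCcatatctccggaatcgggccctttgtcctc
Plk2: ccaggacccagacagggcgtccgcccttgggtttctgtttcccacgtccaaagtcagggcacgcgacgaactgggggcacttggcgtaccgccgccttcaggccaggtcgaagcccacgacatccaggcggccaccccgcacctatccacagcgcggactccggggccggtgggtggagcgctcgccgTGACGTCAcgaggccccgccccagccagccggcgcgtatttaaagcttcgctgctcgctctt
Both decamers of Cdkn1a lie 73 to 64 and 51 to 42 bases before that start, the decamer of Mdm2 186 to 177, that of Gadd45a 40 to 31, and the TGACGTCA of Plk2 62 to 55 bases before its start.

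Library totals ran from 12403528 to 22886441 counts. Msh6 transcript followed the labels: in striatum it had a median of 17.6 CPM in wild-type mice, 13.9 in Msh6+/- and 8.03 in Msh6-/- mice, and it was lower by 1.16 on the log2 scale in Msh6-/- mice averaged over Q140 (log2 fold change -1.16 ± 0.05, adjusted p = 2.81e-25, edgeR quasi-likelihood test). CPM values were TMM-scaled within each tissue, a value after ± is the standard error of a log2 fold change, and a gene is said to rise or fall where its Benjamini-Hochberg adjusted p over all genes of the tissue is below 0.05 in that test. The tissue labels matched the striatal projection neuron markers, whose summed level was 15513 to 17712 CPM in wild-type striatum and 718 to 842 CPM in wild-type cortex. The striatal library of Q140 Msh6-/- mouse 21-3 stood apart with 2491 CPM of Ttr, a choroid plexus transcript, where the next striatal library held 25.8. Members that lose a call without this library are named beside their values. The strand setting of the counting is not given in the sources used here, and 9 of the 34 members share exon sequence with another annotated gene, so reads of such pairs cannot be told apart with certainty.

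In wild-type mice the members spanned a wide range of expression. Per unit of transcript length, in FPKM as deposited, Plk2, a kinase induced by synaptic activity that trims synaptic strength, was the most abundant member in both tissues, with 105 to 127 FPKM in striatum (median 117) and 68.2 to 76.8 in cortex (median 71). The next in striatum were H2afx, the histone variant marked at DNA breaks, at a median of 21.7 FPKM and Bax, the pore-forming cell death effector, at 15. In cortex they were Ccng1, a cyclin that recruits a phosphatase to Mdm2, at 32 FPKM and H2afx at 17.3. Trp53 itself was at 5.58 FPKM in striatum and 4.36 in cortex, and Cdkn1a, the cyclin-dependent kinase inhibitor p21, at 6.72 and 6.58. At the low end stood the checkpoint kinase genes Chek1 (0.247 FPKM in striatum) and Chek2 (0.293), the receptor gene Eda2r (0.0606) and Gdf15. Gdf15, which encodes a secreted stress signal, did not pass the filter on low counts in either tissue: 31 of 48 striatal and 28 of 48 cortical libraries held 0 reads and none held more than 4. Eda2r, a death-domain receptor of the TNF family, passed in striatum with 3 to 30 reads per library and did not pass in cortex. So 33 members were tested in striatum and 32 in cortex.

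**Figure D1:**
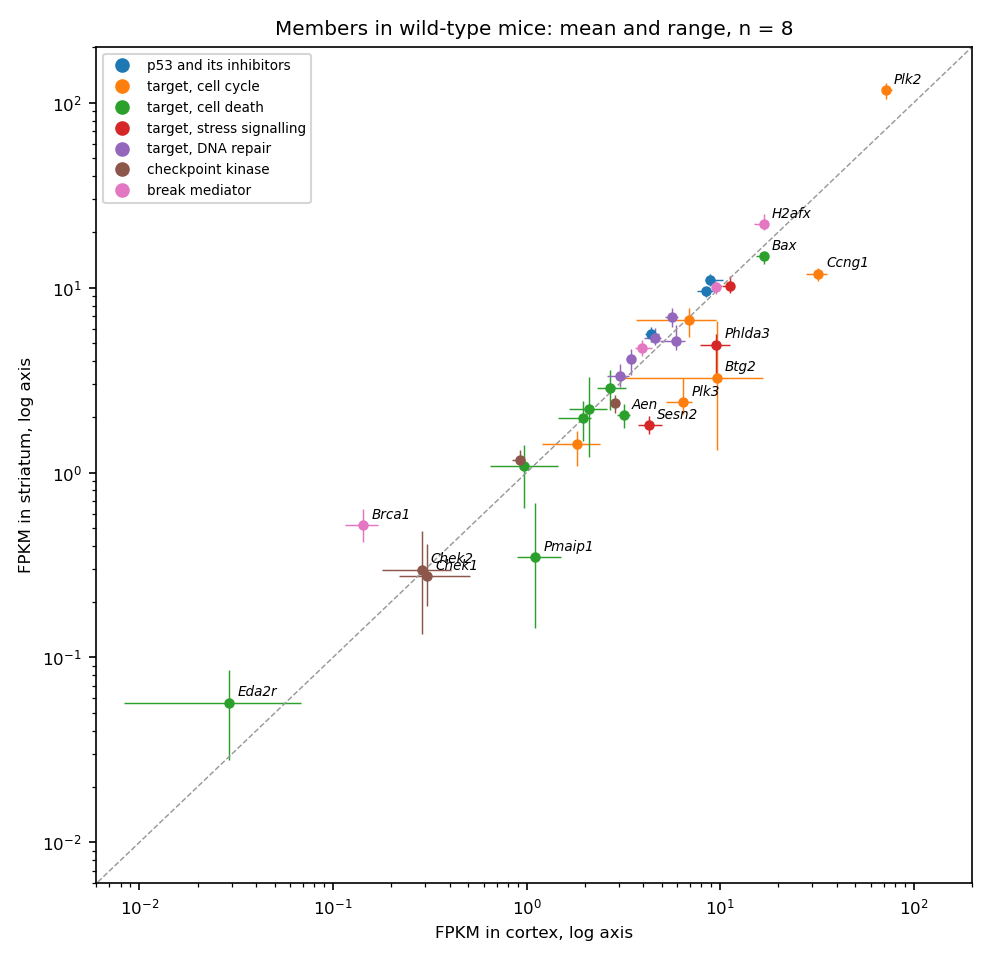
Mean FPKM of 33 members in wild-type striatum (vertical, log axis) against wild-type cortex (horizontal, log axis), with the range over 8 mice as bars, the dashed line marking equal levels, and names given to members far from the line or at the extremes. Gdf15 is left out because most libraries held 0 reads. Brca1 lies above the line, and Ccng1, Sesn2, Plk3 and Pmaip1 lie below it.

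Between the tissues of wild-type mice 26 of 33 members differed (14 higher and 12 lower in striatum), against 72.4% of all 18440 genes in the same fit (35.9% higher and 36.5% lower), a share close to that of all genes. Brca1, which directs repair of DNA breaks by recombination, was higher in striatum by 1.86 ± 0.14 on the log2 scale (adjusted p = 5.41e-23). Its wild-type range was 3.71 to 5.53 CPM in striatum and 0.992 to 1.45 in cortex, with no overlap. The members lowest in striatum relative to cortex were Pmaip1 (log2 -1.68 ± 0.20), which encodes the BH3-only protein Noxa, Btg2 (-1.53 ± 0.29), an antiproliferative early response gene, Ccng1 (-1.43 ± 0.05), the Polo-like kinase gene Plk3 (-1.41 ± 0.12) and Sesn2 (-1.24 ± 0.08), a leucine-sensing inhibitor of mTORC1. Trp53 (0.35 ± 0.05), Mdm2 (0.32 ± 0.04) and Plk2 (0.72 ± 0.04) were higher in striatum, while Cdkn1a did not pass the test (-0.03, 95% interval -0.39 to 0.32).

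Q140 striatum held changes in both directions and of modest size. Averaged over the Msh6 genotypes, 24 Q140 against 24 other mice, 13 of 33 members rose and 4 fell. That is 17 members or 51.5%, next to 52.7% of all 17503 genes (29.1% higher and 23.6% lower), so the number called is near the background of this tissue. Counts by role given below stand next to the same shares and rest on only 3 to 8 members each. The median member log2 fold change was 0.063 and that of all genes 0.015, and single members ran from -0.54 to 0.36. The 4 that fell were Gadd45a, Cdkn1a, H2afx and Plk2. The rises were smaller, from 0.05 for Mdc1 to 0.28 for Rrm2b. In the striatum of these same comparisons many cell type markers were lower too, and in bulk tissue fewer cells of a type and less RNA per cell cannot be told apart.

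**Figure D2:**
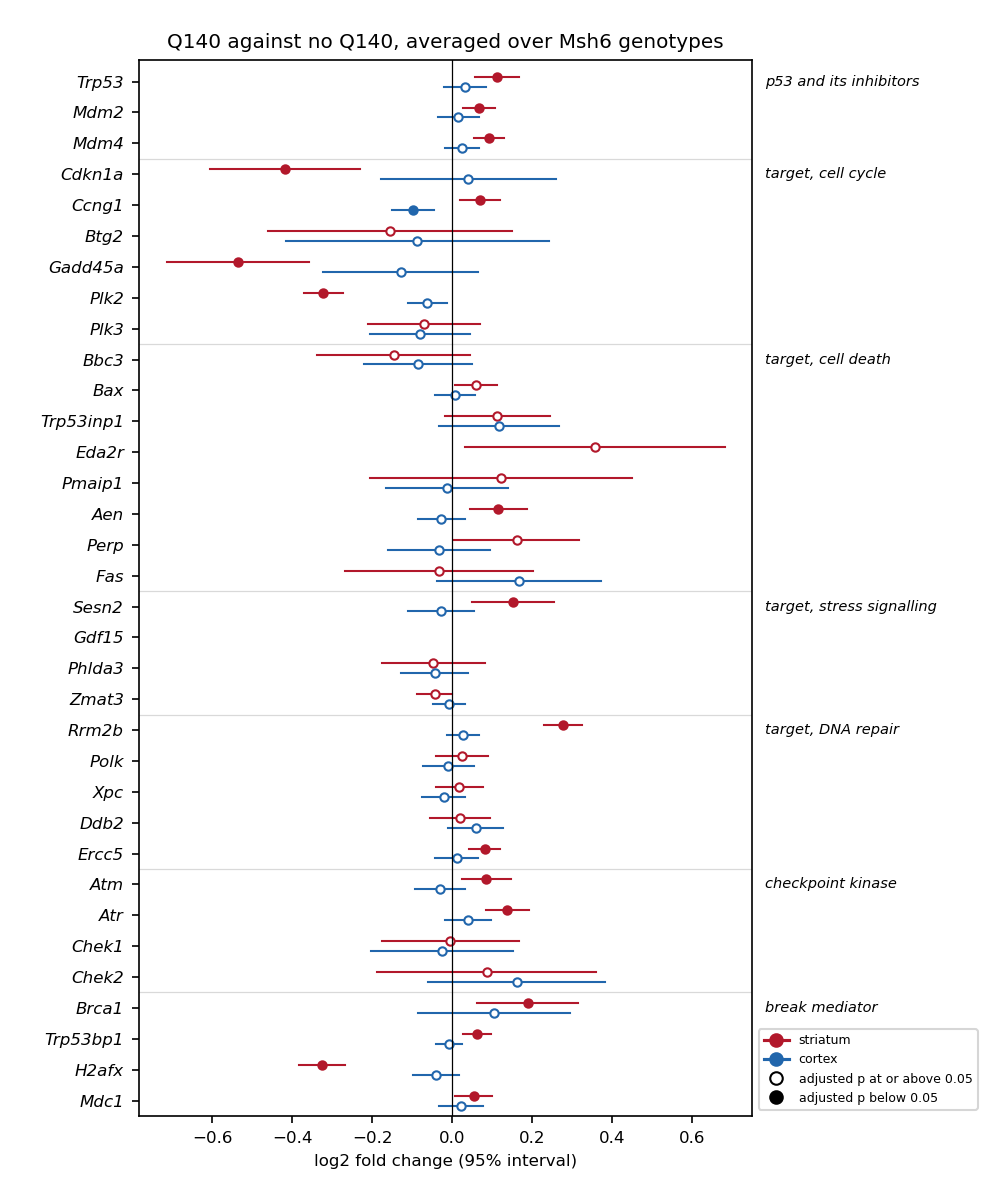
Log2 fold change of each member in Q140 mice against mice without Q140, averaged over the Msh6 genotypes (24 against 24 mice), in striatum (red) and cortex (blue), with 95% intervals and members grouped by role. Filled points have an adjusted p below 0.05: 17 in striatum and 1, Ccng1, in cortex.

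Of p53 and its inhibitors all 3 rose by small amounts in Q140 striatum. Trp53 (chromosome 11, 69580359 to 69591873, plus strand, GRCm38) was at 19.4 to 25.8 CPM in the 24 mice without Q140 (median 23.3) and at 22.4 to 28.4 in the 24 Q140 mice (median 25.5), overlapping ranges in which 9 Q140 mice lay above every mouse without the allele. Its log2 fold change was 0.11 ± 0.03 (adjusted p = 0.000501). Mdm2 had 51.6 to 61.6 CPM without Q140 (median 57.1) and 55.3 to 67.3 with it (median 59.5), and rose by 0.07 ± 0.02 (adjusted p = 0.00375), and 7 Q140 mice lay above every mouse without the allele. Mdm4 had 134 to 157 CPM (median 148) and 145 to 170 (median 155) and rose by 0.09 ± 0.02 (adjusted p = 3.02e-05). Within single Msh6 genotypes Trp53 passed the test in 1 of 3 pairs (0.14 ± 0.05 in Msh6-/-, adjusted p = 0.0157), Mdm4 in 2 and Mdm2 in 0, although each was positive in all 3.

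The targets that act on the cell cycle held 3 of the 4 falls. Cdkn1a (chromosome 17, 29090976 to 29100727, plus strand) had 12.3 to 17.9 CPM in wild-type striatum (median 15.3) and 8.48 to 12.1 in Q140 striatum (median 10.3), groups that did not overlap. In Msh6+/- striatum it had 12 to 18.9 CPM (median 15), and in Q140 Msh6+/- striatum 7.49 to 26.4 (median 12.1), where 1 mouse, 21-5, held the highest value of all 48 libraries. In Msh6-/- striatum it had 8.9 to 16.9 CPM (median 14.5) and in Q140 Msh6-/- 6.76 to 17.6 (median 9.11). In all, 22 of 24 Q140 mice lay below the median of the mice without Q140. The averaged log2 fold change was -0.42 ± 0.09 (adjusted p = 0.000162). It was -0.57 ± 0.16 in Msh6+/+ mice (adjusted p = 0.00551), -0.22 ± 0.16 in Msh6+/- mice (adjusted p = 0.318) and, for Msh6-/-, -0.47 ± 0.16 (adjusted p = 0.0219). Without mouse 21-5 the Msh6+/- value was -0.42 ± 0.14 (adjusted p = 0.0158), and without the library of mouse 21-3 the averaged value was -0.48 ± 0.08 (adjusted p = 5.31e-06).

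Mouse 21-5 was also the highest of 48 for Cdkn1a in cortex (29.5 CPM) and, among genes outside the set, the highest of 48 for the glucocorticoid-induced gene Fkbp5 in both tissues (82.2 CPM in striatum and 71.2 in cortex). Mouse 21-3 was second for both genes in cortex, with 23.6 CPM of Cdkn1a and 45.9 of Fkbp5. In striatum it ranked 5 of 48 for Cdkn1a (17.6 CPM) and 4 of 48 for Fkbp5 (64.3). Mice without Q140 were high for both genes too. Wild-type mouse 21-1 ranked 4 for Cdkn1a and 3 for Fkbp5 in striatum (17.9 and 66.7 CPM) and in cortex (21.4 and 45.1). Msh6+/- mouse 26-3 ranked 3 for Cdkn1a (21.7 CPM) and 4 for Fkbp5 (42) in cortex. The summed level of the 12 glucocorticoid-induced genes counted below did not peak in the group of mouse 21-5 in striatum. It reached 932 CPM there in wild type and at most 852 in Q140 Msh6+/-. In cortex it peaked in Q140 Msh6+/-, at 893 CPM. Cdkn1a is itself inducible by glucocorticoids as well as by p53. The part of this in the Cdkn1a values was not tested.

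Gadd45a, a stress-induced gene tied to repair and demethylation, had a median of 2.57 CPM in wild-type and 1.68 in Q140 striatum, with ranges of 1.98 to 2.97 and 1.33 to 3.18. Across the 48 mice 23 of 24 Q140 values lay below the median of the others, and the ranges overlapped (1.27 to 3.18 against 1.66 to 3.57 CPM). It fell by 0.54 on the log2 scale (-0.54 ± 0.09, adjusted p = 1.23e-06) and was called in each of the 3 Msh6 genotypes, which share no mice (-0.48, -0.57 and -0.55). These are 24 to 70 reads per library. E230016M11Rik, a noncoding gene on the other strand whose exons overlap those of Gadd45a, had a similar number of reads (median 37 per striatal library against 38.5 for Gadd45a) and was lower in the same comparison (-0.67 ± 0.09, adjusted p = 2.76e-09), so the 2 genes cannot be told apart here.

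Plk2 (chromosome 13, 110395046 to 110400844, plus strand) had 299 to 367 CPM in the mice without Q140 (median 339) and 237 to 318 in those with it (median 271), and 23 of 24 Q140 mice lay below every mouse without Q140. The exception, at 318 CPM, was Q140 Msh6-/- mouse 24-2, which was also the highest of 48 for Btg2. Its log2 fold change was -0.32 ± 0.03 (adjusted p = 4.45e-16), and it was -0.31, -0.35 and -0.30 in Msh6+/+, Msh6+/- and Msh6-/- mice, called in each. Ccng1 rose by 0.07 ± 0.03 (adjusted p = 0.0181), a change that lost its call without the filter on low counts (adjusted p = 0.0539). Btg2 (-0.16, 95% interval -0.46 to 0.15) and Plk3 (-0.07, -0.21 to 0.07) did not pass. Btg2 ran from 3.76 to 21.2 CPM over the 48 striatal libraries, and the 5 highest mice for Btg2 (24-2, 19-2, 22-2, 24-3 and 13-2, from 5 genotypes) were also the 5 highest for the immediate early gene Fos.

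**Figure D3:**
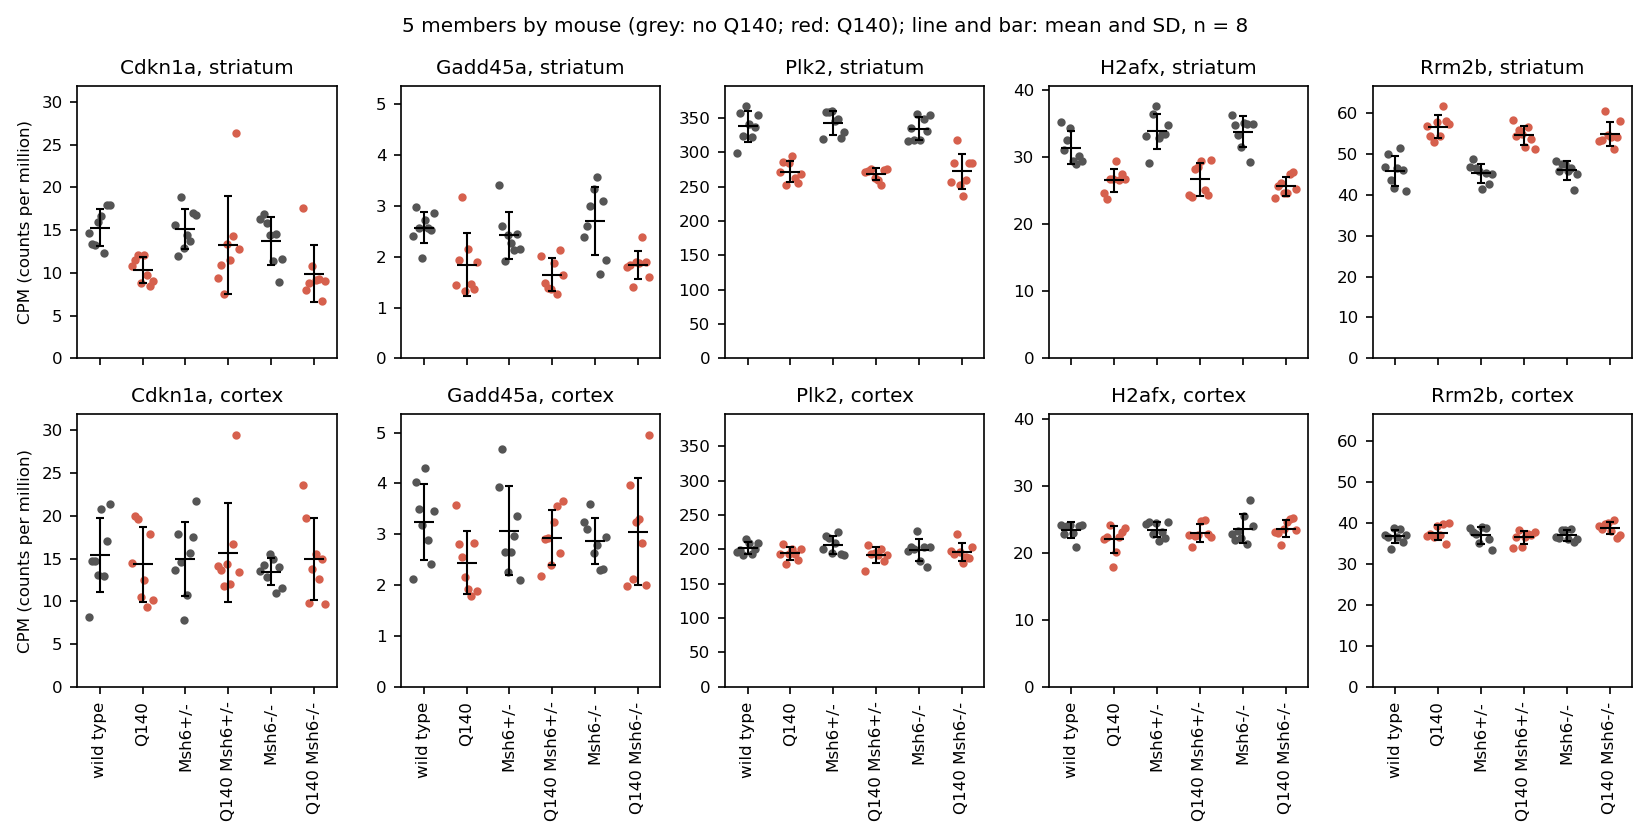
CPM of Cdkn1a, Gadd45a, Plk2, H2afx and Rrm2b in each mouse (points), with the mean and SD of 8 mice per genotype, in striatum (top) and cortex (bottom); red points carry Q140 and grey points do not. In striatum the Q140 groups sit lower for Plk2 and H2afx and higher for Rrm2b, and in cortex the groups overlap; mouse 21-5 is the highest Cdkn1a point of each tissue.

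Among the 8 targets that act in cell death 1 rose in the averaged striatal comparison and 0 fell. This was Aen, an apoptosis-enhancing nuclease, with 10.4 to 14.3 CPM without and 11.7 to 15.7 with Q140 and a log2 fold change of 0.12 ± 0.04 (adjusted p = 0.0053). Bax (0.06 ± 0.03, adjusted p = 0.0511), the lipid raft protein gene Perp (0.16 ± 0.08, adjusted p = 0.0759) and Eda2r (0.36 ± 0.16, adjusted p = 0.0596) did not pass, nor did Bbc3, which encodes the BH3-only protein Puma (-0.15 ± 0.10), Pmaip1 (0.12 ± 0.16), the death receptor gene Fas (-0.03 ± 0.12) and the autophagy-linked Trp53inp1 (0.11 ± 0.07). In single genotypes Bax was called in Msh6+/- mice (0.12 ± 0.04, adjusted p = 0.0326). Eda2r (chromosome X, 97333840 to 97377216, minus strand) was called in Msh6+/+ mice, with 0.168 to 0.521 CPM in wild-type (median 0.366) and 0.168 to 1.65 in Q140 striatum (median 0.707), a log2 fold change of 1.16 ± 0.30 (adjusted p = 0.00191). Eda2r was at -0.30 ± 0.28 within Msh6+/- animals and 0.21 ± 0.26 within Msh6-/- animals, neither called. The interaction terms for Eda2r, -1.46 ± 0.41 with Msh6+/- and -0.94 ± 0.40 with Msh6-/-, had adjusted p-values of 0.929 and 0.965.

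Of the stress signalling targets Sesn2 rose by 0.15 ± 0.05 (adjusted p = 0.0107), from 4.75 to 7.9 CPM without Q140 (median 6.34) to 5.38 to 8.76 with it (median 6.78). Phlda3, an inhibitor of Akt and among the more specific p53 targets, was at -0.05 (95% interval -0.17 to 0.08), and Zmat3, an RNA-binding splicing regulator, at -0.04 (-0.09 to 0.00). Both lie below a rise of 1.5-fold over their whole interval.

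Of the repair targets Rrm2b rose by the most. Rrm2b (chromosome 15, 37923952 to 37961318, minus strand) encodes the p53-inducible small subunit of ribonucleotide reductase, which supplies deoxynucleotides for repair and mitochondrial DNA in cells that do not divide. In wild-type striatum it had 40.8 to 51.3 CPM (median 46.3) and in Q140 striatum 52.9 to 61.6 (median 57). In Msh6+/- mice it had 41.4 to 48.6 (median 45.5) without and 51.1 to 58.3 (median 54.5) with Q140, and in Msh6-/- mice 41.1 to 48.3 (median 46.2) without and 51.2 to 60.5 (median 54.1) with Q140. The groups did not overlap in any of the 3 pairs, and Rrm2b was the only member of which that held. How many of all genes separate in this way was not counted. Its averaged log2 fold change was 0.28 ± 0.02 (adjusted p = 1.3e-14), and the single pairs gave 0.30, 0.27 and 0.26. Ercc5, the endonuclease of nucleotide excision repair that cuts 3′ of a lesion, rose by 0.08 ± 0.02 (adjusted p = 0.000445). The damage recognition genes Xpc (0.02 ± 0.03) and Ddb2 (0.02 ± 0.04) and the translesion polymerase gene Polk (0.02 ± 0.03) did not pass the test.

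Both apical checkpoint kinases rose and their partners did not pass. Atr, which answers stalled replication, had 23.6 to 31.6 CPM without Q140 (median 26.6) and 24.8 to 32.9 with it (median 29.5), and rose by 0.14 ± 0.03 (adjusted p = 2.25e-05). Atm, which answers DNA breaks, rose by 0.09 ± 0.03 (adjusted p = 0.0166). Chek1 and Chek2, at 0.89 to 1.96 and 0.409 to 1.79 CPM, were at -0.00 (95% interval -0.18 to 0.17) and 0.09 (-0.19 to 0.36).

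Among the 4 mediators at DNA breaks 3 rose and 1 fell. Brca1 rose by 0.19 ± 0.06 (adjusted p = 0.00956), from a median of 4.57 to 5.13 CPM. Trp53bp1, which steers breaks towards end joining, rose by 0.06 ± 0.02 (adjusted p = 0.00171). Its exons overlap those of Tubgcp4 on the other strand, which rose by 0.13 ± 0.03 (adjusted p = 0.000115). Tubgcp4 had a median of 613.5 reads per striatal library against 2782.5 for Trp53bp1, and their reads cannot be told apart with certainty. Mdc1, the adaptor that binds phosphorylated H2afx, rose by 0.05 ± 0.02 (adjusted p = 0.042), and lost that call without mouse 21-3 (0.05, adjusted p = 0.0688) and without mouse 21-5 (0.05, adjusted p = 0.0576). The Mdc1 call was also lost with RLE size factors, a scaling other than TMM computed in edgeR (adjusted p = 0.093). It was lost too without the filter on low counts (0.132) and with DESeq2 (0.0988). H2afx (chromosome 9, 44334694 to 44336077, plus strand) fell. It had 29 to 37.6 CPM in mice without Q140 (median 33.4) and 23.8 to 29.6 in Q140 mice (median 26.4), and 21 of 24 Q140 mice lay below every mouse without the allele. Its log2 fold change was -0.33 ± 0.03 (adjusted p = 8.73e-14), with -0.24, -0.34 and -0.40 in the Msh6+/+, Msh6+/- and Msh6-/- pairs, called in each. These values count H2afx transcripts and do not measure the phosphorylated histone at breaks.

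By Msh6 genotype, Q140 changed 7 of 33 members in Msh6+/+ striatum (21.2%, next to 29.7% of all genes), 8 in Msh6+/- (24.2%, next to 31.2%) and 11 in Msh6-/- (33.3%, next to 33.0%). The 3 pairs share no mice. Gadd45a, Plk2, H2afx and Rrm2b were called in all 3, 3 members in 2 pairs, 8 in 1 pair and 19, among them the untested Gdf15, in 0. The share of all genes called in 1, 2 or 3 pairs was not counted, so these numbers have no background beside them. The members called in 2 pairs were Cdkn1a, Mdm4 and Atr (Atr 0.12 ± 0.05 in Msh6+/- and 0.18 ± 0.05 in Msh6-/- mice). Those called in 1 pair were Eda2r in Msh6+/+ mice, Bax, Aen (0.21 ± 0.06) and Ercc5 (0.10 ± 0.03) in Msh6+/- mice, and Trp53, Ccng1 (0.12 ± 0.04), Atm (0.14 ± 0.05) and Trp53bp1 (0.08 ± 0.03) in Msh6-/- mice. The counts depend on the scale: on log2 FPKM with a pseudocount of 0.1, where the median of all genes in the averaged comparison itself lies at 0.078, 13 members rose and 4 fell in Msh6+/+ mice, and 10 rose and 3 fell in Msh6+/- mice, whereas by counts 3 rose and 4 fell in Msh6+/+ and 5 rose and 3 fell in Msh6+/-. With RLE size factors in edgeR 4 rose and 4 fell in Msh6-/- mice, where TMM gave 7 and 4. The shares of all genes called under these alternatives are not given here, so these counts have no background beside them. Several of the single-pair calls were lost under alternatives. In the Msh6+/- pair Bax lost its call with DESeq2 (adjusted p = 0.0577), with only the libraries of both groups (0.0563), with the animal number's prefix as covariate (0.0543) and without the filter on low counts (0.0813). Ercc5 lost it with DESeq2 (adjusted p = 0.0709), with only both groups (0.102) and without the filter (0.103), and Atr with 5 alternatives, at adjusted p-values from 0.0523 with DESeq2 to 0.0813 with only both groups. In the Msh6-/- pair Ccng1 and Atm lost their calls without mouse 21-3 (adjusted p = 0.0974 and 0.0696). Both also lost them with RLE size factors in edgeR (0.0517 and 0.0685) and without the filter (0.0838 and 0.0978). Ccng1 lost its call also with only both groups (0.0678), and Atm also with DESeq2 (0.0678). Trp53bp1 lost its call there with RLE size factors (adjusted p = 0.0727), without the filter (0.126) and with DESeq2 (0.0586). Mdm4 lost its Msh6+/+ call without the filter (0.0765). Whether Msh6 changed the Q140 effect was tested as an interaction. With Msh6-/- 0 members and 0% of genes were called in striatum (876 genes and 3 members had an unadjusted p below 0.05), and with Msh6+/- 0 members and 0% of genes (836 genes and 1 member). DESeq2 also called 0 members in each. For Cdkn1a the terms were 0.09 ± 0.23 with Msh6-/- and 0.34 ± 0.23 with Msh6+/-, for Trp53 0.06 ± 0.07 and 0.03 ± 0.07, and for Mdm2 -0.01 ± 0.05 and 0.01 ± 0.05.

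In cortex 1 of 32 members was called for Q140 averaged over Msh6 genotypes, next to 1.54% of all 17622 genes. It was Ccng1, which had 98.2 to 128 CPM in the mice without Q140 and 97.4 to 119 in those with it, and was lower by 0.10 (log2 -0.10 ± 0.03, adjusted p = 0.0403). The call was lost without mouse 21-5 (-0.10, adjusted p = 0.0581) and on both FPKM scales (adjusted p = 0.102 and 0.101). Trp53 (0.03, 95% interval -0.02 to 0.08), Mdm2 (0.02, -0.04 to 0.07) and Cdkn1a (0.04, -0.18 to 0.26) did not pass, and the Cdkn1a value was -0.03 without mouse 21-5. All 32 upper bounds of the 95% intervals lay under a rise of 1.5-fold. In single Msh6 genotypes 0 members were called: in Msh6+/+ mice 0.0170% of genes were (3 members and 1081 genes at an unadjusted p below 0.05), in Msh6+/- mice 0.193% (5 members and 2094 genes) and in Msh6-/- mice 0.136% (1 member and 945 genes). DESeq2 called 0 members in each, and gave no adjusted p for 32 members in the Msh6+/+ pair and for 27 in the Msh6+/- pair. In these 3 pairs Trp53 was at 0.06, -0.01 and 0.04, Cdkn1a at -0.10, 0.08 and 0.15, and Mdm2 at -0.01, 0.03 and 0.02. Both cortical interaction terms called 0 members and 0% of genes by edgeR, with 1 member and 692 genes at an unadjusted p below 0.05 for Msh6-/-, 3 members and 911 genes for Msh6+/-, and 0 members called by DESeq2. The terms of Trp53 (-0.02 and -0.06), Mdm2 (0.03 and 0.04) and Cdkn1a (0.25 and 0.18) for Msh6-/- and Msh6+/- did not pass.

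The Q140 effect differed between striatum and cortex for 12 of 33 members (36.4%, next to 37.5% of all 18440 genes), 8 of them more positive in striatum (21.4% of all genes were) and 4 more negative (16.2%). The 4 were Cdkn1a (difference of log2 fold changes -0.46 ± 0.15, adjusted p = 0.0107), Gadd45a (-0.41 ± 0.14, adjusted p = 0.0121), H2afx (-0.28 ± 0.04, adjusted p = 2.44e-08) and Plk2 (-0.26 ± 0.04, adjusted p = 3.41e-09). Of the 8, Rrm2b (0.25 ± 0.03, adjusted p = 2.07e-11), Ccng1 (0.17 ± 0.04, adjusted p = 8.92e-05) and Aen (0.15 ± 0.05, adjusted p = 0.00649) kept the call without the striatal library of mouse 21-3. Without that library 7 members were called, 3 more positive and 4 more negative, and Mdm4, Sesn2, Atm, Atr and Trp53bp1 were not. Mdm4, Atm and Trp53bp1 were also not called without mouse 21-5. The same 5 members were not called without the filter on low counts (adjusted p = 0.073 to 0.279). Mdm4, Atm, Atr and Trp53bp1 were not called with RLE size factors in edgeR (0.055 to 0.121). Gadd45a lost its call on log2(FPKM + 1) (adjusted p = 0.0619). With RLE size factors in edgeR the split was 4 and 4, and on log2(FPKM + 1) it was 15 and 3. The shares of all genes called under these alternatives are not given here. Trp53 (0.08, 95% interval 0.01 to 0.16, adjusted p = 0.0647) and Mdm2 (0.06, -0.01 to 0.12) did not pass.

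Loss of Msh6 gave no called change in any tested member. Averaged over Q140, with 16 against 16 mice, 0 of 33 members in striatum and 0 of 32 in cortex were called for Msh6-/- by edgeR, next to 0.263% and 0.284% of all genes, which is 46 and 50 genes. At an unadjusted p below 0.05 stood 4 members in striatum (Eda2r, Pmaip1, Polk and Atr) and 1 in cortex (Polk, with the opposite sign). That p was reached by 1157 of 17503 genes in striatum and 1036 of 17622 in cortex. DESeq2 called 0 members in each tissue. Trp53 had a median of 22.8 CPM in wild-type and 23.1 in Msh6-/- striatum, and a log2 fold change of 0.00 (95% interval -0.06 to 0.07) there and of -0.02 (-0.08 to 0.05) in cortex. Cdkn1a was at -0.10 (-0.33 to 0.13) in striatum and -0.06 (-0.33 to 0.21) in cortex. Mdm2, whose transcript follows p53 activity through its own intronic promoter, was at -0.01 (-0.06 to 0.03) and 0.01 (-0.05 to 0.08).

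**Figure D4:**
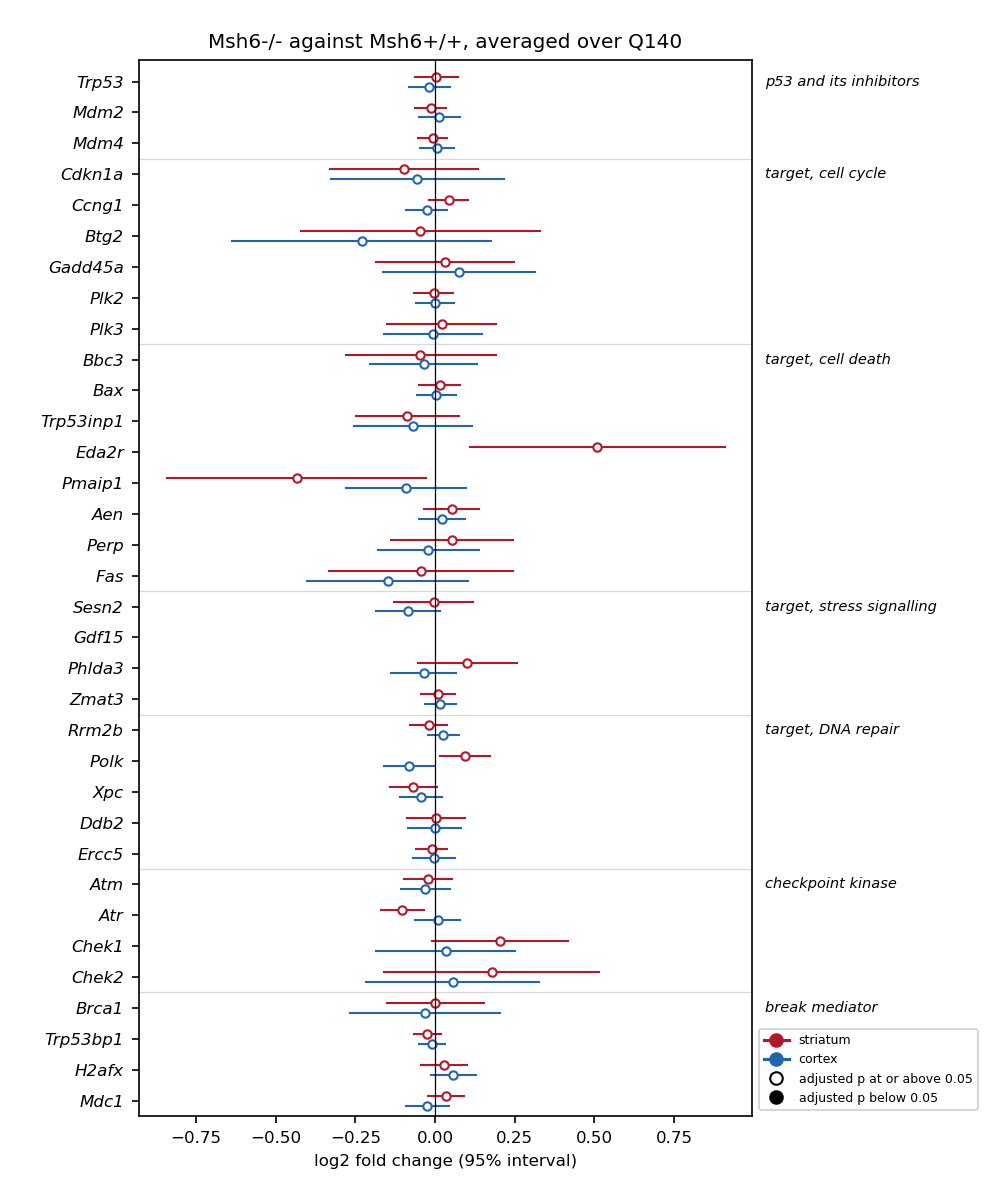
Log2 fold change of each member in Msh6-/- against Msh6+/+ mice, averaged over Q140 (16 against 16 mice), in striatum (red) and cortex (blue), with 95% intervals and members grouped by role. No point is filled, since 0 members had an adjusted p below 0.05, and the widest intervals are those of Pmaip1 and Eda2r in striatum and Btg2 in cortex.

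The intervals bound what such a change could be in the comparison averaged over Q140. In striatum 32 of 33 upper bounds lay under a rise of 1.5-fold and all 33 under 2-fold, the exception at 1.5-fold being Eda2r (0.51, 95% interval 0.11 to 0.91, adjusted p = 0.594). In cortex all 32 lay under 1.5-fold. The single pairs called 0 members as well. In striatum these were Msh6-/- without Q140 (0.0971% of genes called, with 5 members and 1121 of 17503 genes at an unadjusted p below 0.05), Msh6-/- with Q140 (0.177%, 2 members and 957 genes), Msh6+/- without Q140 (0.0114%, 2 members and 992 genes) and Msh6+/- with Q140 (0.00571%, 2 members and 753 genes). In cortex they were Msh6-/- without Q140 (0.131%, 0 members and 589 of 17622 genes), Msh6-/- with Q140 (0.153%, 3 members and 1225 genes), Msh6+/- without Q140 (0.00567%, 1 member and 581 genes) and Msh6+/- with Q140 (0.0113%, 2 members and 1388 genes). DESeq2 called 0 members in each of these 8 pairs. By pair, 28 to 32 of 33 striatal upper bounds lay under 1.5-fold and 32 or 33 under 2-fold. The highest were log2 1.614 for Msh6+/- and 1.586 for Msh6-/-, both without Q140. In cortex 31 or 32 of 32 lay under 1.5-fold and all 32 under 2-fold. Over the 8 pairs Trp53 ran from -0.05 to 0.04, Mdm2 from -0.02 to 0.03 and Cdkn1a from -0.18 to 0.33. In the pairs without Q140 the members nearest to a call in striatum were Eda2r for Msh6-/- (0.98 ± 0.30, adjusted p = 0.388) and again Eda2r for Msh6+/- (1.01 ± 0.30, adjusted p = 0.827); these share the wild-type mice with each other and with the Q140 pair above, which had the lowest median Eda2r level of the 6 groups.

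Sex, balanced in every group, was tested in the same fits. In cortex 1 of 32 members was called, next to 6.31% of all genes: Btg2 was lower in females (log2 -0.64 ± 0.17, adjusted p = 0.0113). In striatum 0 of 33 members were called by edgeR, next to 5.54% of all genes. An unadjusted p below 0.05 was reached by 8 members, next to 3525 of 17503 genes, with Btg2 among the members (-0.43 ± 0.15, adjusted p = 0.0863). Trp53 was at -0.07 in each tissue (adjusted p = 0.149 in striatum and 0.106 in cortex), and Cdkn1a (0.03 and 0.03) and Mdm2 (-0.01 and 0.02) did not pass. DESeq2 was not run for this comparison.

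The counts for the further gene lists in Q140 striatum stand next to the same 52.7% of all genes called (29.1% higher and 23.6% lower). Of 37 further p53 targets and regulators tested, 11 rose and 9 fell (median log2 -0.006, all genes 0.015), a share near that background. The calls with the smallest adjusted p were Rprm, the cell cycle inhibitor Reprimo (1.30 ± 0.08, adjusted p = 1.13e-18), the epoxide hydrolase gene Ephx1 (-0.49 ± 0.04, adjusted p = 1.04e-14), Sfn, which encodes 14-3-3 sigma (-0.80 ± 0.07, adjusted p = 4.54e-14), and Ccng2 (-0.26 ± 0.02, adjusted p = 1.12e-13). In cortex 0 of 36 were called for Q140, and for Msh6-/- 0 of 37 in striatum and 0 of 36 in cortex. Of 38 further checkpoint and break repair genes 15 rose and 6 fell in Q140 striatum, again near the 52.7% of all genes. These included Clspn, the Chek1 adaptor Claspin (-1.28 ± 0.06, adjusted p = 1.11e-25), the end joining genes Xrcc5 (0.36 ± 0.03, adjusted p = 3.75e-17) and Prkdc (0.33 ± 0.03, adjusted p = 2.74e-13), and the phosphatase gene Cdc25b (-0.49 ± 0.05, adjusted p = 7.66e-11). In cortex 0 of 38 were called for Q140, and 0 of 38 in each tissue for Msh6-/-.

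Of 18 cell death regulators outside the set 3 rose and 3 fell in Q140 striatum, a smaller share than the 52.7% of all genes. The activator Hrk fell by 1.17 (-1.17 ± 0.04, adjusted p = 3.03e-28) and Casp9 by 0.22 (-0.22 ± 0.04, adjusted p = 7.52e-07), while Bad rose by 0.16 (0.16 ± 0.03, adjusted p = 2.03e-05). For Msh6-/- 1 was called, Bmf in cortex (0.30 ± 0.07, adjusted p = 0.0165), and 0 in striatum. Of 16 cell cycle and senescence genes 6 rose and 3 fell in Q140 striatum, a share near that of all genes, with Ccnd2 (-0.23 ± 0.04), Cdk4 (-0.12 ± 0.02), Cdkn1b (0.14 ± 0.03) and Mcm2 (0.27 ± 0.06) the smallest adjusted p-values (4.04e-07, 1.21e-06, 2.2e-05 and 0.000358). Of 17 tested in cortex 0 were called for Q140 and 0 for Msh6-/-.

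Lists of neighbouring programmes that share members with the p53 response were counted against the same background. Of 11 activity-induced immediate early genes 9 fell and 0 rose (median log2 -0.49). The smallest adjusted p-values were those of Egr2 (-1.47 ± 0.19, adjusted p = 7.53e-09), Egr1 (-0.56 ± 0.09, adjusted p = 1.99e-06), Dusp1 (-0.49 ± 0.10, adjusted p = 2.37e-05) and Egr4 (-0.58 ± 0.12, adjusted p = 3.92e-05). Their summed level was 550 to 1665 CPM in wild-type and 536 to 1130 in Q140 striatum. In cortex 0 of 11 were called, with a median of -0.23. Of 12 glucocorticoid-induced genes 3 fell and 0 rose in striatum, next to 23.6% of all genes lower: Per1 (-0.52 ± 0.07, adjusted p = 1.61e-09), Mt1 (-0.20 ± 0.04, adjusted p = 4.65e-05) and Sgk1 (-0.33 ± 0.09, adjusted p = 0.00127). Of 13 targets of the integrated stress response, a list that holds Sesn2, 4 rose and 4 fell, next to 29.1% of all genes higher and 23.6% lower, with Asns at 0.18 ± 0.02 (adjusted p = 4.41e-10), Psat1 at 0.15 ± 0.02 (adjusted p = 8.03e-08), Trib3 at -0.66 ± 0.10 (adjusted p = 4.61e-07) and Ddit3 at -0.18 ± 0.04 (adjusted p = 9.88e-05). The part of these programmes in the values of Plk2, Gadd45a, Cdkn1a and Sesn2 was not tested.

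Cell type markers moved with the same comparison, in which 23.6% of all genes were lower. In Q140 striatum 12 of 14 projection neuron markers fell and 1 rose, with a summed level of 15513 to 17712 CPM in wild-type and 9524 to 10076 in Q140 mice, ranges that did not overlap. All 8 microglia markers fell (416 to 462 against 357 to 399 CPM), as did all 8 endothelial markers (258 to 280 against 213 to 244 CPM). Of 8 astrocyte markers 6 fell and 1 rose (4341 to 4903 against 3922 to 4123 CPM), and of 8 oligodendrocyte markers 6 fell (5407 to 7122 against 4451 to 6516 CPM). In Msh6-/- mice without and with Q140 the ranges overlapped for microglia (383 to 447 and 345 to 392 CPM) and endothelial markers (231 to 307 and 225 to 244), but not in Msh6+/- mice. Astrocyte ranges overlapped in Msh6+/- mice (4150 to 4726 and 3639 to 4163 CPM) but not in Msh6-/- mice. Of 5 oligodendrocyte precursor markers 3 fell, of 4 choroid plexus and ependyma markers 3 rose, of 7 cortical glutamatergic markers 3 rose and 2 fell, and of 4 blood markers 0 were called. The choroid plexus count includes the Ttr-rich striatal library of mouse 21-3, and no count without it is given here. In its group the summed level of these markers reached 2755 CPM, with a median of 43.1. No marker of the projection neuron, glial, vessel or choroid lists was at 0 in all libraries. In cortex at most 2 markers of a list were called. The part of cell composition in the striatal falls of Cdkn1a, Gadd45a, H2afx and Plk2 was not tested.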

How the data were processed

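RNA from dissected cortex and striatum was extracted with RNeasy and made into TruSeq stranded libraries, per the labels' protocols. The authors deposited read counts per gene and FPKM values, per the file headers. STAR 2.7.5c, SAMtools 1.10, HTSeq 0.12.3 and GRCm38 (mm10) are named in the submitters' processing notes, while the sources used here give neither the strand setting nor the annotation release. Per-sample totals of the deposited counts ran from 12403528 to 22886441.

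The deposited counts were tested with edgeR 4.0.16 (TMM scaling, quasi-likelihood fit of the 6 genotypes and sex in each tissue, filterByExpr with a minimum count of 10 and minimum total of 15, Benjamini-Hochberg adjustment over all genes, threshold 0.05). Tissues were compared in one fit of all 96 libraries. Intervals are 95% intervals of the fit. The deposited FPKM values were used for levels between genes and, as log2(FPKM + 0.1) and log2(FPKM + 1) with a mean of at least 0.1, in limma 3.58.1 as alternatives. Other alternatives were DESeq2 1.42.0, RLE size factors computed in edgeR in place of TMM, no filter and no sex term. Further ones were the animal number's prefix as a covariate, single pairs of groups, and leaving out the striatal library of mouse 21-3. All were run in R 4.3.3. Leaving out mouse 21-5, in both tissues, was chosen after seeing the data. The scripts were tested on simulated data.

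The animal number in the labels pairs the tissues of a mouse. Over 48 animals and 18440 genes the deviations from the group means of the same animal's libraries correlated with a median r of 0.103 (-0.024 to 0.187), against -0.003 for other animals, and 36 animals correlated best with their own. The count of identical library pairs was 0.

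The members and the other gene lists were chosen with earlier results of these data known. Named throughout are Trp53, Cdkn1a and Mdm2, each member called in a genotype comparison, each member removed by the filter, the rest by role, and up to 4 genes of each other list with the smallest adjusted p. A gene that this rule picks from the cell death list is not reported here. Promoters come from RefSeq on GRCm38.p6, and gene coordinates and exon overlaps from GENCODE on GRCm38.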

Additional observations from a re-analysis of the deposited data

Results flagged for a closer look

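In 13 of 138 groups of 8 mice (9.42%) the highest or lowest mouse stood far from the others. The rule used flags about 1 in 20 independent groups of normally distributed values. The same mice recur across genes here, so the share does not measure an excess over chance. In striatum Cdkn1a was at 26.4 CPM in Q140 Msh6+/- mouse 21-5 (next 14.3) and at 17.6 in Q140 Msh6-/- mouse 21-3 (next 10.8), and in cortex at 29.5 in mouse 21-5 (next 16.7). Mdm2 was at 67.3 CPM in the striatum of Q140 mouse 18-5 (next 60.6) and at 52.7 in the cortex of wild-type mouse 21-1 (next 45.4). Sesn2 was at 8.76 CPM in the striatum of Q140 mouse 24-1 (next 7.21) and at 8.76 in that of Q140 Msh6+/- mouse 26-4 (next 7.18). Gadd45a was at 3.18 CPM in the striatum of Q140 mouse 19-3 (next 2.15) and at 3.41 in that of Msh6+/- mouse 13-3 (next 2.61). Ccng1 was at 128 CPM in the cortex of Msh6+/- mouse 18-4 (next 115). Low values were those of Bax in the striatum of Msh6-/- mouse 24-3 (21.6 CPM, next 23.5), Rrm2b in that of Msh6-/- mouse 32-1 (41.1, next 45.1) and Trp53 in the cortex of Q140 mouse 29-3 (16.9, next 18.4).

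The Q140 effect differed between striatum and cortex, by a test of the difference itself, for 12 members. The log2 differences were -0.455 for Cdkn1a, -0.407 for Gadd45a, -0.280 for H2afx and -0.255 for Plk2. They were 0.254 for Rrm2b, 0.184 for Sesn2, 0.171 for Ccng1, 0.147 for Aen, 0.121 for Atm, 0.103 for Atr, 0.075 for Trp53bp1 and 0.072 for Mdm4.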

How the results depend on the processing

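Of 91 results for single genes, 72 kept their direction and their side of the threshold under every alternative run for them. The call counts that moved by over 1.5 times follow, without the share of all genes called under the same alternative. For the tissue difference in the Q140 effect 7 members were called without a filter on low counts, against 12. Without the striatal library of mouse 21-3 there were also 7 (leaving out both libraries of mouse 21-5, which gave 9, moved it less). For Q140 in cortex 0 were called without mouse 21-5 and on both FPKM scales, against 1. For Q140 in Msh6+/+ striatum 17 were called on both FPKM scales, against 7, and in Msh6+/- striatum 13 on both FPKM scales and 5 without a filter or with DESeq2, against 8. The cause was not tested. The direction reversed for Trp53 in Msh6-/- striatum with the animal number's prefix as covariate (-0.031), and for Cdkn1a in Q140 cortex without mouse 21-5 (-0.029), neither a called value. With the animal as a replicate block 13 members were called for the tissue difference and 26 between wild-type tissues, and no call named here was lost. Low counts limit Gdf15, Eda2r, Chek1, Chek2 and Gadd45a. Mice other than 21-3 and 21-5 were not left out in turn, nor was the cortical library of mouse 21-3.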
